A study of Saccharomyces cerevisiae with 2 samples.

Results

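The ferric and cupric reductase family of budding yeast, Saccharomyces cerevisiae, is the set of genes named FRE1 to FRE8. The members were taken by gene symbol from the longer of the deposited series tables, and all 8 were found among its 5734 genes. RNA had been sequenced, from total RNA extracts, from the strain 2-10515, labelled wild type, and from the strain Y518, labelled mutant, which the series title describes as rich in glutathione (GSH). Each culture started from a single colony, was grown as seed for 18 h at 30 °C and 180 rpm, and was then fermented for 24 h in 50 ml of medium in 500 ml flasks with 10% inoculum. Neither the labels nor the file headers name the mutated genes of Y518, the metals in the medium or how the strains are related. There was 1 library per strain, with 4.71 megareads, all uniquely mapped, over 5664 genes for the wild type and 4.32 megareads over 5681 genes for Y518, or a median of 234 and 262 reads per gene. No test between strains was possible, so the values describe these libraries and have no replicate check. In bulk RNA, fewer cells with a transcript and less transcript per cell cannot be told apart.

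Fre proteins are membrane flavocytochromes. They carry electrons from NADPH in the cytosol, through FAD and haem, to a metal ion on the far side of a membrane, where ferric iron becomes ferrous and cupric copper becomes cuprous. Yeast needs this step because its high-affinity carriers take up the reduced metals: ferrous iron enters through the oxidase and permease pair Fet3 and Ftr1, and cuprous copper through Ctr1 and Ctr3. The transcription factors Aft1 and Aft2 switch on the iron genes when iron is scarce, and Mac1 switches on the copper genes when copper is scarce. FRE1 answers to both metals, FRE2 to FRE6 are known as iron-regulated, and FRE7 as copper-regulated. FRE8 was placed in neither group, since its regulation is less clear.

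The stretches below, from the R64 reference genome of strain S288C, lie before the start codons and hold letters that match the known motifs of Aft1 (core CACCC, long form TGCACCC) and Mac1 (core GCTCA, long form TTTGCTC), on either strand. They are shown as examples of each kind of match and do not cover every match. All 8 deposited records matched R64 by accession, version and coding length. The sequences are the reference's and not those of 2-10515 or Y518. Each reads 5′ to 3′ on the strand of the gene, with the motif in capitals. The long Aft form is shown for the first 6 genes and the first 2 long Mac1 forms for FRE1, within chrXII:568267-568318 (plus strand).
FRE2: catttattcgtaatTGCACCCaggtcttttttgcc
FRE3: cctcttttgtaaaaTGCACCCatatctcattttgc
FRE4: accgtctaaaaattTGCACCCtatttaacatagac
FRE5: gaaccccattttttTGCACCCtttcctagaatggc
FRE6: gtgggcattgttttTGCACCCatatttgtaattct
FRE8: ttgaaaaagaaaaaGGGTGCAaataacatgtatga
FRE1: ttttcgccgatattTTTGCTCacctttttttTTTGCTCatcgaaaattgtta
FRE7: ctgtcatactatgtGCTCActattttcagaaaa
FRE7: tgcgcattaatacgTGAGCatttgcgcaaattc
In the order printed, the first 6 lie at chrXI:11636-11670 (minus), chrXV:1055104-1055138 (plus), chrXIV:739500-739534 (plus), chrXV:1061219-1061253 (plus), chrXII:39593-39627 (minus) and chrXII:241717-241751 (minus). The FRE7 stretches lie at chrXV:40350-40382 and chrXV:40551-40583 (plus) and hold the Mac1 core only. The coding sequences themselves lie at chrXII:568567-570627 (FRE1, plus), chrXI:9091-11226 (FRE2, minus), chrXV:1055545-1057680 (FRE3, plus), chrXIV:739951-742110 (FRE4, plus), chrXV:1061564-1063648 (FRE5, plus), chrXII:37333-39471 (FRE6, minus), chrXV:40748-42610 (FRE7, plus) and chrXII:239347-241407 (FRE8, minus).

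Within 500 bases before the start codon, 6 of the 8 members held the long Aft form, against 2.33% of 6000 yeast promoters. They are FRE2, FRE3, FRE4, FRE5, FRE6 and FRE8, and FRE5 holds it at 2 places. The long form begins 430, 427 and 437 bases before the start codon in FRE2, FRE3 and FRE4, but only 142 bases before it in FRE6. FRE1 and FRE7 lack the long Aft form in this window. FRE1 holds the Aft core once, 221 bases before the start codon, and FRE7 does not hold it. The long Mac1 form occurs 3 times before FRE1 and before no other member, against 8.62% of all promoters. The Mac1 core, which overlaps the long form by 4 letters, was found before FRE1, FRE2, FRE4, FRE5 and FRE7 (5 members), but also before 47.3% of all promoters. The Aft core lies inside the long Aft form and was found before 7 members and 33.5% of promoters. In the shorter window of 250 bases, 2 members held the long Aft form (1.15% of promoters), 3 the Aft core (16.3%), 2 the Mac1 core (26.1%) and 1 the long Mac1 form (4.43%). A further form of the Mac1 core, GCTCAT, was tried in both windows, so that 5 forms were searched in 2 windows, and the long forms, GCTCAT and the longer window were added after the data were seen. It was found before 1 member in 250 bases (9.95% of promoters) and before FRE1 and FRE4 in 500 bases (18.5%). A match of letters is a description and not a bound site.

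**Figure D1:**
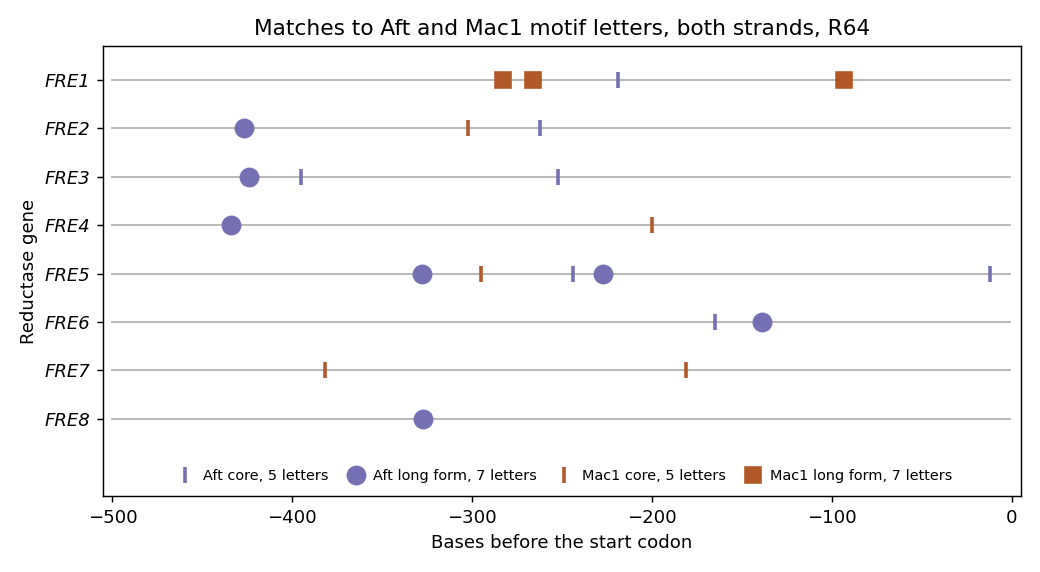
Places of the Aft and Mac1 motif letters in the 500 bases before the start codon of each member (horizontal axis, bases). Large circles mark the long Aft form, squares the long Mac1 form and ticks the cores, drawn beneath a long form where the places overlap. A circle is carried by 6 of the 8 genes, and FRE1 alone carries squares.

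As a family, the reductase genes had fewer reads for their length in Y518. FRE5 had 0 reads there, and reads covered only 57.6% of FRE2 and 67.0% of FRE3, as described below. Whether reads of these genes failed to match the reference was not tested. RPKM (the reads of a gene divided by its coding length in kilobases and by the library total in megareads) summed over the 8 genes was 1097 in the wild type and 222 in Y518, a 4.95-fold difference. FRE7 gave 60.0% of the wild-type sum, and without it the sums were 439 and 185, a 2.38-fold difference. By the rule of size used here, a ratio of (RPKM + 1) of at least 2-fold with a mean of at least 5 RPKM, 5 members were lower in Y518, 1 was higher and 2 were within 2-fold. All 8 passed the RPKM minimum. Of the 5415 genes tested over the whole table, 8.88% were lower and 19.9% higher. The median log2 ratio was -1.80 for the members and 0.27 for all genes tested. With ratios centred on that median, 5 members were lower and 0 higher, beside 13.6% of all genes lower and 13.2% higher.

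**Figure D2:**
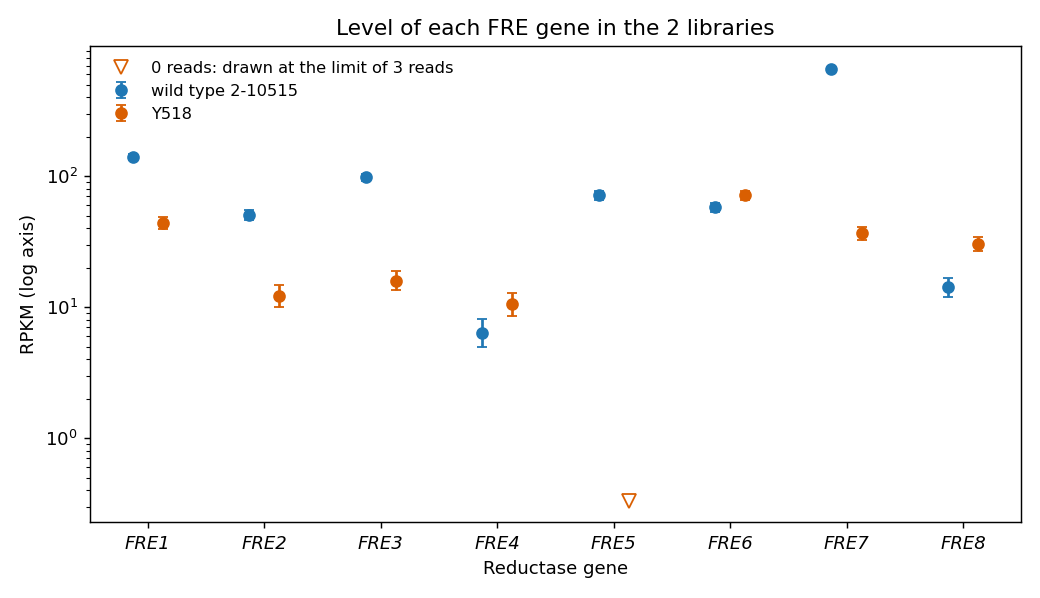
RPKM of each member (log axis) in the wild type and in Y518, with exact Poisson 95% intervals that cover counting error only. FRE7 stands highest in the wild type at 658 RPKM, whereas in Y518 the members lie between 10.6 and 71.7 RPKM, apart from FRE5, which had 0 reads and is drawn at the limit of 3 reads.

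The order of the members differed between the libraries. In the wild type it ran FRE7, FRE1, FRE3, FRE5, FRE6, FRE2, FRE8, FRE4, and the highest level was 103-fold above the lowest. Each step in this order was larger than counting error, the closest being FRE6 over FRE2 with a ratio of 1.15 (95% interval 1.02 to 1.29). In Y518 it ran FRE6, FRE1, FRE7, FRE8, FRE3, FRE2, FRE4, with FRE5 at 0. The range over the 7 members with reads was 6.75-fold. FRE2 and FRE4 did not differ beyond counting error there (ratio 1.15, 0.87 to 1.53). FRE6 supplied 5.26% of the summed RPKM of the family in the wild type and 32.4% in Y518.

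FRE1 and FRE2 encode the main reductases of the cell surface, which act on iron, including iron held by siderophores, and on copper. FRE1 (YLR214W) had 1364 wild-type reads and 392 from Y518. These equal 141 RPKM (133 to 148) and 44.1 RPKM (39.8 to 48.6). FRE1 was therefore 3.19-fold lower in Y518 (95% counting interval 2.85 to 3.58), and it was the second member of the family in both libraries. FRE2 (YKL220C) had 506 and 113 reads, or 50.3 RPKM (46.0 to 54.9) and 12.3 RPKM (10.1 to 14.7). Its level was 4.11-fold lower in Y518 (3.34 to 5.08). The 113 reads covered 57.6% of FRE2, where reads placed at random would cover 92.5%. The interval does not allow for this uneven coverage.

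FRE3 and FRE4 encode surface reductases of siderophore-bound iron. FRE3 (YOR381W) had 991 wild-type reads and 147 from Y518, or 98.5 RPKM (92.5 to 105) and 15.9 RPKM (13.5 to 18.7). It was 6.18-fold lower in Y518 (5.19 to 7.40). The 147 reads covered 67.0% of FRE3, where reads placed at random would cover 96.6%, and the interval does not allow for this. FRE4 (YNR060W), which acts on a subset of siderophores, was the faintest member of the wild type with 65 reads, against 99 in Y518. Its levels were 6.39 RPKM (4.93 to 8.15) and 10.6 RPKM (8.63 to 12.9), a ratio of 1.66 (1.20 to 2.31) that stayed within 2-fold by the rule of size. The genes of this pair therefore lay on opposite sides of equal levels.

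FRE5 (YOR384W), a putative ferric reductase detected in purified mitochondria, had 702 wild-type reads and 0 from Y518. The wild-type level was 71.5 RPKM (66.3 to 77.0). Set against a floor of 3 reads, or 0.333 RPKM, in Y518, FRE5 was at least 215-fold lower. The exact 95% interval, used for the other members, has its upper limit at 0.41 RPKM for 0 reads and its lower bound at 174-fold. Of the 4919 genes with at least 50 wild-type reads, 0.203% had 0 reads in Y518, and FRE5 had the most wild-type reads among these 10. RNA reads cannot tell apart a silent gene, a missing gene and a sequence too different from the reference to be matched.

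FRE6 (YLL051C), the vacuolar member, had 581 wild-type reads and 662 from Y518. It was at 57.7 RPKM (53.1 to 62.6) and 71.7 RPKM (66.3 to 77.4), a ratio of 1.24 (1.11 to 1.39). After centring on all genes its log2 ratio was 0.04. Vacuolar FRE6 thus lay near the median of all genes. Of the surface members, FRE1, FRE2 and FRE3 were lower, but FRE4, like FRE6, was within 2-fold.

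FRE7 (YOL152W), the copper-regulated member, had 5774 wild-type reads and 296 from Y518. Its level was 658 RPKM (641 to 675) against 36.8 RPKM (32.7 to 41.2), which is 17.9-fold lower in Y518 (15.9 to 20.2). Among all listed genes FRE7 stood at percentile 96.1 of RPKM in the wild type and 42.0 in Y518. FRE8 (YLR047C), a relative with a part in iron homeostasis, was the higher member, with 138 and 269 reads. It had 14.2 RPKM (11.9 to 16.8) and 30.2 RPKM (26.7 to 34.1), and was 2.13-fold higher in Y518 (1.73 to 2.63). FRE8 sat just past the limit: its log2 ratio of 1.04 became 0.76 after centring, which is within 2-fold. AIM14, a NADPH oxidase of the endoplasmic reticulum related to Fre8, had 781 wild-type reads and 503 from Y518, with a log2 ratio of -0.50.

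Among the 6 members that answer to iron (FRE1 to FRE6), 4 were lower and 2 within 2-fold, with a median log2 ratio of -1.80. For this and the other counts of this paragraph, the shares of all genes tested were 8.88% lower and 19.9% higher. Among the lower ones, FRE5 had 0 reads in Y518, and FRE2 and FRE3 were covered there over 57.6% and 67.0%. Both members that answer to copper, FRE1 and FRE7, were lower, with log2 ratios of -1.65 and -4.12. Summed RPKM of the iron group was 425 and 155, a 2.75-fold difference, and that of the copper group 799 and 80.9, a 9.88-fold difference. FRE1 belongs to both groups. Without it the iron group (FRE2 to FRE6) had a median of -1.95 and a 2.57-fold lower sum, and FRE7 was left alone in the copper group. Whether the groups differ could not be tested with 1 library per strain and 1 gene that answers to copper only. The members with the long Aft form differed among themselves: of these 6, FRE2, FRE3 and FRE5 were lower, FRE4 and FRE6 within 2-fold and FRE8 higher.

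**Figure D3:**
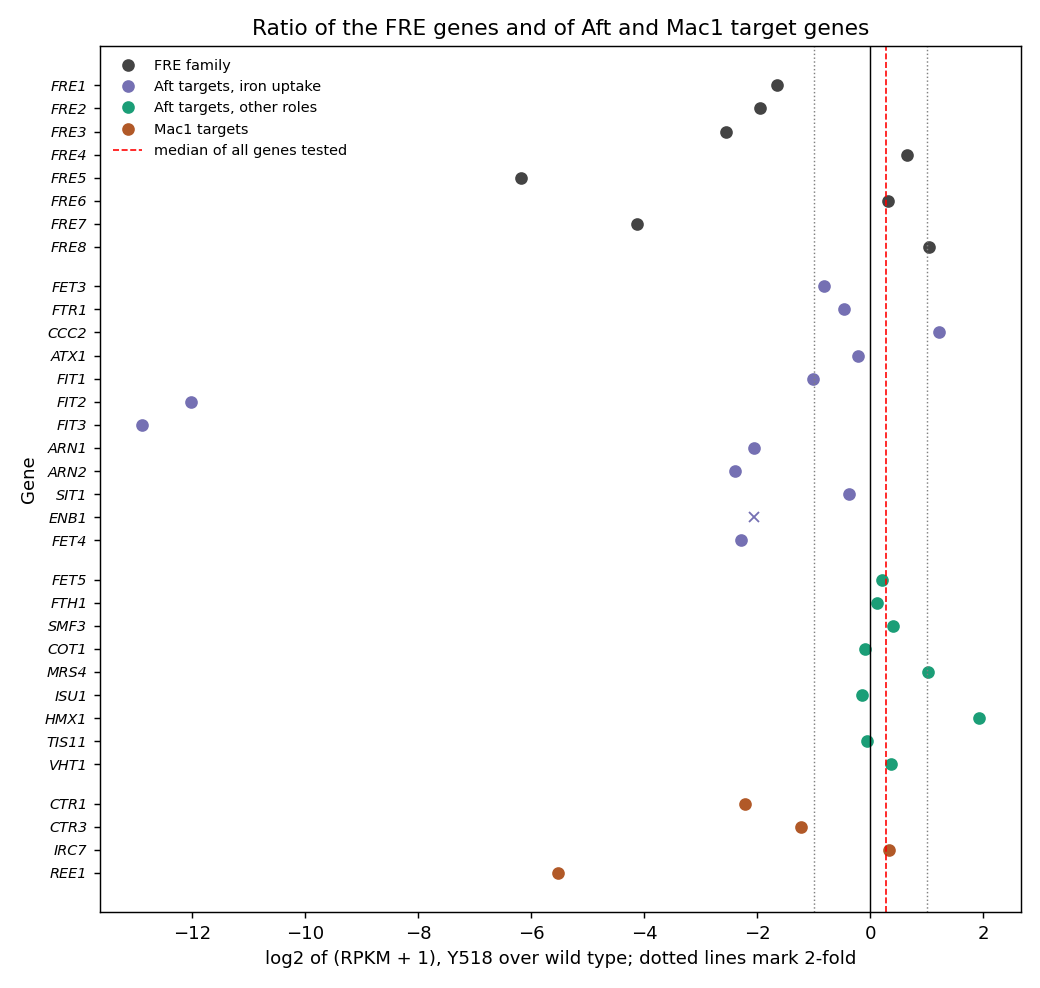
Log2 ratio of (RPKM + 1), Y518 over wild type, for the FRE genes and for other targets of Aft and Mac1; a cross marks the 1 gene below the RPKM minimum. Of the genes tested, 6 of 11 Aft targets for iron uptake and 3 of 4 Mac1 targets lie left of the dotted 2-fold line. The share of all genes tested that lies there is 8.88%. The Aft targets with other roles have a median of 0.21, beside 0.27 for all genes.

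Partners of the reductases in iron uptake were lower in Y518 for 6 of 11 genes tested, a count with no test. The list holds carriers and wall proteins of the cell surface, and ATX1 and CCC2, which act inside the cell to supply Fet3 with copper. Of its 12 genes, 11 passed the minimum, 6 were lower in Y518, 1 was higher and 4 were within 2-fold, with a median log2 ratio of -1.02. Among all genes tested, 8.88% were lower and 19.9% higher. After centring, 7 genes of the list were lower and 0 higher, beside 13.6% and 13.2% of all genes. FIT2 and FIT3, mannoproteins that hold siderophores in the wall, are described with FRE5 below. FIT1, another of them, had 717 and 321 reads and was 2.05-fold lower (1.79 to 2.34). Its coverage was 16.0 and 23.4 points short of that from reads placed at random. ARN1 and ARN2, siderophore transporters, had 6503 and 1426 reads, and 2540 and 436 reads, wild type first. They were 4.18-fold and 5.34-fold lower. FET4, a low-affinity carrier of ferrous iron, was 4.92-fold lower (4.68 to 5.17). The high-affinity iron uptake pair differed less. FET3 had 376 and 212 RPKM and FTR1 289 and 209, with log2 ratios of -0.82 and -0.47. FET3 crossed the limit after centring (-1.10). SIT1, the ferrioxamine transporter, and ATX1, the copper chaperone of the cytosol, had log2 ratios of -0.38 and -0.21. CCC2, the Golgi pump that loads copper into Fet3, was higher at 2.36-fold (2.10 to 2.65), but within 2-fold after centring. ENB1, the enterobactin transporter, fell under the minimum with 27 and 0 reads.

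The other list of Aft targets, with roles in the vacuole, in mitochondria and in iron use, was close to the background. Of its 9 genes, 0 were lower, 2 were higher and 7 within 2-fold, beside 8.88% lower and 19.9% higher among all genes tested. Its median log2 ratio was 0.21, and that of all genes 0.27. FET5 and FTH1, the vacuolar counterparts of Fet3 and Ftr1, had log2 ratios of 0.21 and 0.12, close to FRE6 at 0.31. SMF3, another vacuolar iron carrier, was at 0.41, COT1 at -0.09, the scaffold gene ISU1 at -0.14, VHT1, the biotin carrier of the plasma membrane, at 0.37 and TIS11, which degrades messenger RNAs under iron shortage, at -0.06. HMX1, haem oxygenase, was 3.80-fold higher (3.51 to 4.11) and MRS4, a mitochondrial iron carrier, 2.07-fold higher, the latter within 2-fold after centring.

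Of the 4 other Mac1 targets, 3 were lower in Y518, as FRE1 and FRE7 were, with a median log2 ratio of -1.72. For this count and that of other copper genes below, the shares of all genes tested were 8.88% lower and 19.9% higher. CTR1, the main copper carrier, had 9862 and 1940 reads and was 4.66-fold lower (4.44 to 4.90). CTR3, the second carrier, had 4250 and 1671 reads and was 2.33-fold lower (2.20 to 2.47). REE1 had 126 and 0 reads, at least 38.5-fold lower against the floor of 3 reads, with an exact lower bound of 30.9-fold. IRC7 had 32 and 38 reads. FRE7 had the larger ratio beside CTR1 and CTR3, 17.9-fold against 4.66-fold and 2.33-fold, with counting intervals that did not overlap. The exact lower bound of REE1, 30.9-fold, lay above the ratio of FRE7. Of 5 other copper genes in the table, the median log2 ratio was 0.58, and 2 were higher and 1 lower: the metallothionein gene CRS5 was 5.25-fold and SOD1, copper-zinc superoxide dismutase, 4.84-fold higher, while COX17, a copper chaperone of mitochondria, was 2.26-fold lower. The metallothionein genes CUP1-1 and CUP1-2 were not analysed here.

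Most regulators were within 2-fold, with a median log2 ratio of 0.18. AFT1, the main iron regulator, had 1684 and 783 reads, a log2 ratio of -0.97 just within the limit (-1.24 after centring). AFT2 was at 0.38 and MAC1 at -0.29. None of the 10 regulators was lower (0 genes) and 2 were higher, shares near the 8.88% lower and 19.9% higher of all genes tested. After centring, AFT1 and GRX4 were lower and GRX3 alone was higher. GRX3 and BOL2 (FRA2), whose products restrain Aft1 when iron is ample, were 4.23-fold (3.40 to 5.29) and 2.47-fold (1.70 to 3.64) higher, from 105 and 42 wild-type reads. Their partners GRX4 and FRA1 had log2 ratios of -0.76 and -0.01. YAP5, the activator under iron excess, was at 0.97, and both of its 2 listed targets were within 2-fold. CUP2, the activator of copper detoxification, was at -0.02 and CTH1, the paralogue of TIS11, at 0.43.

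The cofactors of the reductases were mostly within 2-fold. As background for these lists, 8.88% of all genes tested passed the limit on the lower side and 19.9% on the higher. Centring moved these shares to 13.6% and 13.2%. Of 8 haem synthesis genes 2 were lower and 0 higher, with a median log2 ratio of -0.25. HEM13, an oxygen-dependent step of the pathway, had 1066 and 154 reads and was 6.35-fold lower (5.36 to 7.56), and HEM2 was 2.15-fold lower. Of 9 genes for flavin synthesis and transport 1 was higher, the mitochondrial carrier gene FLX1 at 3.22-fold, from 21 wild-type reads, and the median was 0.06. Of 8 genes for NADPH supply 1 was higher, GND2 at 5.23-fold, or 1 higher and 2 lower after centring, with a median of -0.17 before it.

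Around FRE5 on chromosome XV the Y518 library was nearly empty. From the gene YOR381W-A, next to FRE3, to YOR387C, 7 listed genes in a row had 70421 wild-type reads and 6 from Y518. FIT2 had 22595 reads and FIT3 46590 in wild-type RNA, against 3 reads apiece in that of Y518. The small gene YOR381W-A had 16 reads, YOR385W 153, the photolyase gene PHR1 354 and YOR387C 11, each against 0 in Y518. In R64 the run spans 11.8 kb. On both sides the genes had reads in both libraries. RDR1, before FRE3, had 203 and 171 and was within 2-fold. FDH1, formate dehydrogenase, after the run, had 870 and 296 and was 2.69-fold lower (2.36 to 3.09). FRE5 lies inside the run, and FRE3 is the gene at its edge. Without FRE3 and FRE5, 3 members were lower in Y518, namely FRE1, FRE2 and FRE7. FRE8 was higher, and FRE4 and FRE6 were within 2-fold. Of the lower ones, FRE2 was covered over only 57.6% in Y518. Without FIT2 and FIT3 the iron uptake list had 4 lower genes (FIT1, ARN1, ARN2 and FET4) and 1 higher (CCC2). FET3, FTR1, ATX1 and SIT1 were within 2-fold. Among all genes tested, 8.88% were lower and 19.9% higher.

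**Figure D4:**
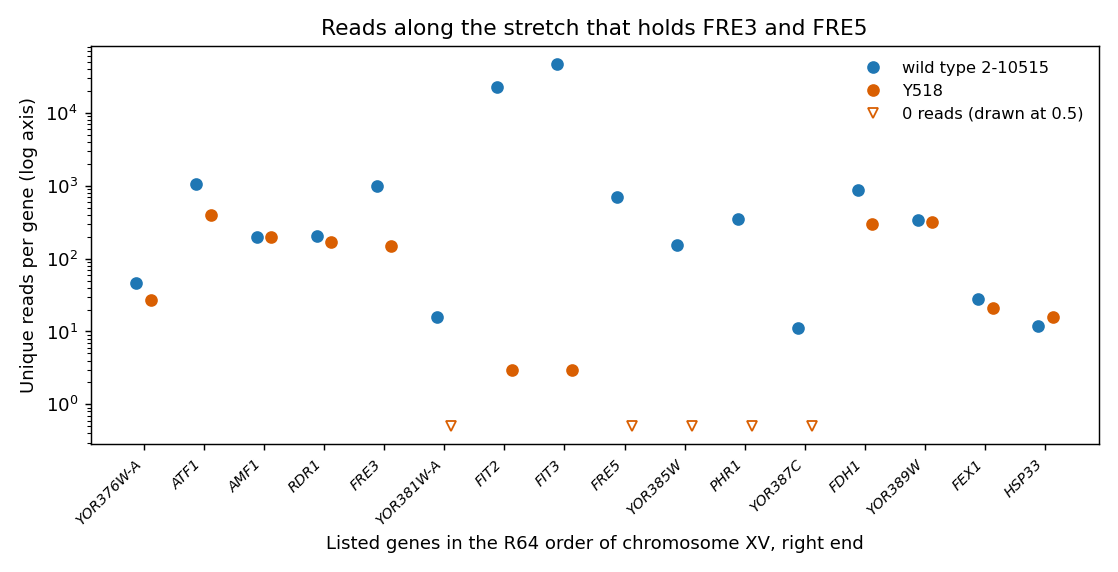
Unique reads per gene (log axis) for listed genes in R64 order along the right end of chromosome XV. In the 7 genes from YOR381W-A to YOR387C the Y518 library holds 0 or 3 reads, while genes on both sides have reads in both libraries.

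The other FRE loci showed no such run. Within 5 genes on each side of FRE1, FRE2, FRE4, FRE6, FRE7 and FRE8, every listed gene had reads in Y518. Next to FRE1, the spore wall gene CRR1, whose start faces that of FRE1 across 644 bases, had 572 and 136 reads and was 3.86-fold lower (3.19 to 4.68), whereas CDC123 on the other side was within 2-fold. Next to FRE7, ZPS1 was 4.93-fold lower on 242 and 45 reads and GRE2, a stress-induced reductase, 3.45-fold higher on 460 and 1455 reads. Beside FRE2 the carrier gene MCH2 had 21 and 81 reads, 4.21-fold higher, and COS9 had 56 and 71. Beside FRE6 the aquaporin gene AQY2 was 2.26-fold lower, and COF1, cofilin, was within 2-fold. Beside FRE8 lay YLR046C, 2.74-fold lower, and the ribosomal protein gene RPS0B, 3.23-fold higher. MNT4 and YNR061C, beside FRE4, were within 2-fold, while farther out BIO5 and BIO3 of biotin uptake and synthesis were 2.70-fold and 2.86-fold lower. Farther neighbours past the limit were MSC3 by FRE1 and YBT1, RPL8B, PSF3, EMA19 and YNR065C by the other loci (higher), and ATF1 by FRE3 (lower). YOL155W-A, near FRE7, had 0 and 8 reads. RPS0B, RPL8B and COS9 have close copies elsewhere in the genome, so their unique reads are uncertain.

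Most FRE genes lie near chromosome ends. In R64, 6 of the 8 members are within 50 kb of an end, a limit chosen after the data were seen, from FRE2 at 9.09 kb to FRE4 at 42.2 kb. FRE8 and FRE1 are at 239 kb and 508 kb. Of 5404 tested genes with a position in R64, 9.92% lie that near. Near an end, 4 members (FRE2, FRE3, FRE5 and FRE7) were lower and FRE4 and FRE6 within 2-fold, beside 17% of the 536 genes there lower and 21.3% higher. Farther away FRE1 was lower and FRE8 higher, beside 7.97% and 19.6% of 4868 genes. These shares are descriptions, and nearness to an end was not tested as a cause.

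Coverage, the share of a gene's coding length with at least 1 read, set FRE2 and FRE3 apart in Y518. Genes with a single read were covered over exactly 49 bases in all 69 cases, so 49 bases were taken as the span of a read. FRE3 was covered over 99.7% in the wild type and 67.0% in Y518. If its 147 reads in Y518 had fallen at random, with equal chance along the gene, 96.6% would have been covered, so 29.5 percentage points were missing. FRE2 was covered over 99.1% and 57.6%, where 113 reads placed at random would cover 92.5%, a shortfall of 34.9 points. A shortfall of at least 25 points, a limit set after these values were seen, was found for 1.68% of 5049 genes with at least 50 reads in Y518 and for 1.75% of 4919 in the wild type. FRE4, with a similar number of reads (99 in Y518), fell short by 5.11 points. In the wild type the shortfalls of FRE2 and FRE3 were 0.94 and 0.28 points.

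**Figure D5:**
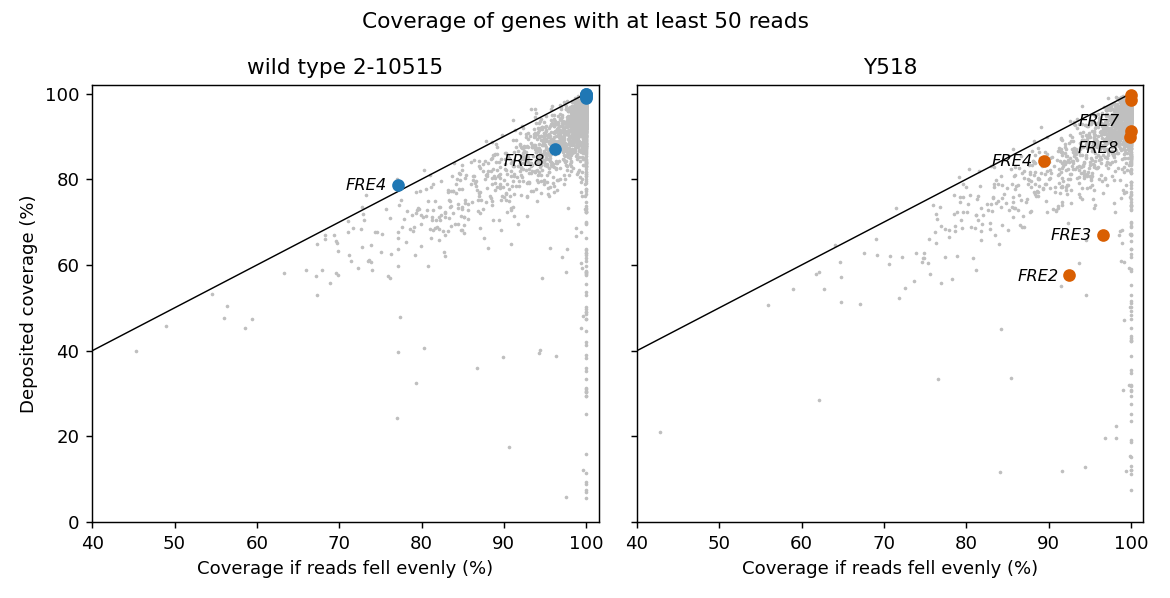
Deposited coverage against the coverage that reads placed at random along the gene would give (axis label: evenly), both in percent. Genes with at least 50 reads are grey and FRE members coloured, in each library, and the line marks equality. In Y518 FRE2 (57.6%) and FRE3 (67.0%) lie well under the line, and FRE7 (91.2%) and FRE8 (89.9%) less so.

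FRE2 and FRE3 are also the most alike members. Their coding sequences in R64 are identical at 77.0% of aligned bases, whereas the next pair, FRE2 and FRE4, reached 65.0% and the lowest of the 28 pairs 55.0%. The longest run that FRE2 and FRE3 share is 34 bases, starting at base 1553 of both coding sequences, and it is printed because it shows that their shared runs are shorter than a read.
FRE2 and FRE3: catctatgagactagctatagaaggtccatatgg
No other pair shares more than 17 bases in a row. Every 49-base window of the 8 coding sequences occurs once in R64 (100% of windows, both strands), and no annotated protein-coding gene overlaps a member there. In the reference, therefore, a 49-base read without mismatches from 1 member has no second place to go. Where in FRE2 and FRE3 the uncovered bases lie is not recorded in the tables, and the part of strain sequence differences in these values was not tested.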

How the data were processed

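Per the file headers, the authors deposited for each gene the count of uniquely mapped reads, the coverage as a percent of gene length, and RPKM (by the library's total reads). Counts in the series table matched those of the single libraries (0 mismatches). A dash was read as 0. No label or header names the aligner, the build or the strand rule. Each of the 5734 lengths divides by 3, hence coding lengths. Of these records 5685 matched R64 with version, and all 5685 had the same coding length there. R64 therefore supplied gene order, sequences and coordinates.

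The members, gene lists and the rule of size (2-fold, 1 RPKM pseudocount, mean of at least 5 RPKM) were chosen with earlier results of these data known. Every gene of the Aft, Mac1 and regulator lists is named. Other lists name at most 4 genes past 2-fold, and of 5 neighbours on each side the nearest and those past 2-fold. Folds are ratios of reads per library total with exact Clopper-Pearson 95% intervals. RPKM intervals are exact Poisson. Both cover counting error only, and reads are not independent molecules. A fold against 0 reads uses 3 reads in that library. Coverage from reads placed at random, with equal chance along the gene, is 1 minus e to the power of minus reads times 49 over length. Library totals were 4.71 and 4.32 megareads. The 500-base window, the long and 6-letter motif forms, the coverage comparison, the 50 kb limit and the run around FRE5 were added after the data were seen. Protein and RefSeq promoter tables were not used here: identities are of coding sequences, from global alignment in Biopython 1.88. TMM factors came from edgeR 4.0.16. The rule and intervals were tried on simulated Poisson counts. These hold counting error only, so the trial cannot speak to variation between cultures or libraries.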

Additional observations from a re-analysis of the deposited data

How the results depend on the processing

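No paired analysis was possible because each strain had 1 library, and no replicate could be left out. FRE3, FRE5 and FRE7 were lower in all 11 alternatives of scaling, pseudocount, minimum, call and coverage, and FRE1 and FRE2 in 10 of 11, failing the 4-fold call alone. FRE6 was within 2-fold in all 11. The count of lower members changed only with the 4-fold call (3) and without FRE3 and FRE5 (3). FRE8 was the unstable call: 0 members were higher after centring, with TMM, with median-of-ratios scaling, with totals without the 10 most abundant genes of either library, with a 5 RPKM pseudocount and with the 4-fold call, and 2 were higher (FRE4 and FRE8) with the 1.5-fold call. The members' median log2 ratio was -2.08 after centring, -2.06 with TMM and -2.07 with median-of-ratios scaling. The log2 ratio of FRE5 ranged from -9.48 to -3.94 with the pseudocount. Without FRE1 the copper median was -4.12.

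Over the whole table, 737 genes were lower and 714 higher after centring, 731 and 715 with median-of-ratios scaling, 886 and 1912 with the 1.5-fold call, and 108 and 246 with the 4-fold call. In the Aft list for iron uptake 0 genes were higher after centring, with TMM, with median-of-ratios scaling and with the 4-fold call. In the Aft list with other roles 1 was higher under each scaling and with the 5 RPKM pseudocount, and 0 with the 4-fold call. Depth limits the ratio of FRE5, with 0 reads in Y518, and that of FRE4, with 65 and 99 reads.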

Other observations

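Besides FRE5, PHR1, YOR385W and REE1, 6 genes with at least 50 wild-type reads had 0 reads in Y518. These were SNZ2 (572 wild-type reads), BDS1 (500), NFT1 (104), SNO3 (77), VBA5 (72) and GIT1 (51). Wild-type reads covered 98.6% of BDS1, 67.2% of NFT1, 64.35% of GIT1 and 36.0% of VBA5, but 15.8% of SNZ2 and 12.3% of SNO3. The last pair rests on short stretches of the genes, and VBA5 was also only partly covered. The 6 genes were picked for their values and are given as a description.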
